A study of Mus musculus with 27 samples.

Results

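The 10 genes described here, Ager, Pdpn, Aqp5, Cldn18, Clic5, Cav1, Rtkn2, Akap5, Hopx and Igfbp2, are used as markers of the alveolar type I cell. They were named as a list, with earlier results of these data known, and are 10 of the 18194 genes measured. Where a gene has several probe sets its brightest one, by the mean of all 27 arrays, was read, and the 18 probe sets of the 10 genes are compared further on. All 10 passed a filter on low values, a mean log2 intensity of at least 6.

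The alveolar type I cell is the large, flat epithelial cell across which the lung exchanges gas. It covers most of the alveolar surface, lies against the capillary endothelium, keeps the airspace dry through water channels, ion transport and tight junctions, and is renewed from the cuboidal, surfactant-producing type II cell after injury. Its thin cytoplasm is rich in caveolae, and its genes are often read as a measure of how much intact alveolar epithelium a piece of lung holds.

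All mice were female, 10 to 12 weeks old, and of the strains C57L/J, which the study treats as sensitive to radiation, C57BL/6J, treated as resistant, or CBA/J. They were sham-irradiated (0 Gy) or had the whole thorax exposed once to X-rays, at 12.5 Gy or at 15 Gy, and lungs were taken 24 hours later. RNA of the right upper lobe was hybridised to Affymetrix mouse genome expression arrays, 1 mouse per array and no pools. Crossing strain with dose gives 9 groups, each of 3 mice, and the comparisons ask whether these genes differed by dose or by strain. Values are log2 intensity and differences are log2 differences, with the standard error (SE) of limma and p-values adjusted over all 18194 genes by the Benjamini-Hochberg method. A gene is called at an adjusted p under 0.05. In RNA of a whole lobe, fewer type I cells and less RNA per cell cannot be told apart.

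As a check of the dose labels, all 7 measured p53 targets rose after irradiation, among them the cell cycle inhibitor Cdkn1a by 3.16 ± 0.10 and Ccng1 by 2.22 ± 0.06 (SE, limma). Some arrays also carried skeletal muscle transcripts, and whether these bear on the genes of interest was not tested. On 9 arrays the mean of 10 skeletal muscle genes stood 2.59 to 8.20 log2 units above the median array, against -0.90 to 0.44 on the other 18. These were 2 CBA/J sham arrays (replicates 1 and 2), 2 CBA/J arrays at 12.5 Gy (replicates 2 and 3), 2 C57BL/6J arrays at 12.5 Gy (replicates 1 and 2), 2 C57BL/6J arrays at 15 Gy (replicates 2 and 3) and 1 C57L/J array at 15 Gy (replicate 3). Thus 7 of 18 irradiated arrays and 2 of 9 sham arrays carried muscle transcripts, and values without these arrays are given beside results whose call or direction they change. Such values leave replicate 3 as the only CBA/J sham array. It was the lowest CBA/J sham array for every gene of the 10 but Pdpn.

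Among the 10 genes, Pdpn and Igfbp2 carried the differences between strains reported below, so the RefSeq promoters of both are shown first, 250 bases before to 50 bases after the start of the transcript, in build GRCm38.p6 of the C57BL/6J genome. The Pdpn promoter lies at chr4:143299515-143299814 on the minus strand and that of Igfbp2 at chr1:72824230-72824529 on the plus strand. A second RefSeq start is listed for Igfbp2 and is not shown. Capitals mark GC boxes, GGGCGG on either strand.
Pdpn: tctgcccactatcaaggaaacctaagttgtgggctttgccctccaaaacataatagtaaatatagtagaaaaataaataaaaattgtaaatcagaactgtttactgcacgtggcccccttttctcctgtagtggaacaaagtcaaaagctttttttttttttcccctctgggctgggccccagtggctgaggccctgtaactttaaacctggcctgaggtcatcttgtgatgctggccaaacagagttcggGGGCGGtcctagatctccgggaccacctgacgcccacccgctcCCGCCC
Igfbp2: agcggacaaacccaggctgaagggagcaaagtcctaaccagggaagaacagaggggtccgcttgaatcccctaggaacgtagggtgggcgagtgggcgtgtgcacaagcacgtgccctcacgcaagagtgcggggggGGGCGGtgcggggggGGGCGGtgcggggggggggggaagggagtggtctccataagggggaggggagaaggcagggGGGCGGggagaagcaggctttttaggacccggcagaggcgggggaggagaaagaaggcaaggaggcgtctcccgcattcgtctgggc

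Promoters were listed for 9 of the 10 genes (13 starts in all) and none for Rtkn2. In this window 6 of the 13 promoters, 1 each of Igfbp2, Pdpn, Cav1, Akap5, Aqp5 and Clic5, held a GC box, which 35.6% of the 32817 RefSeq promoters of the same length held. The letters CACTTG, a form of the site of NKX2-1, were present in 1 promoter each of Hopx and Cldn18, against 13.6% of all promoters. GGAATG, the site of the TEAD factors, was present in none of the 13 and in 14.7% of all promoters, and TATAAA stood in 1 Cav1 promoter and in 13.6% of all. These matches, searched on both strands, describe letters only, and the promoters of C57L/J and CBA/J were not analysed here.

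Irradiation at either dose moved none of the 10 genes past the threshold. Over the 3 strains, 0 of 10 were called between the 18 irradiated and the 9 sham arrays (limma), where 14.3% of all genes were. At an unadjusted p under 0.05 there were 2, Cav1 and Cldn18, where 27.1% of all genes passed. The estimates were small: 9 of the 10 lay below 0, where 52.2% of all genes did, and their median was -0.13 against -0.01 for all genes. The range ran from -0.35 for Cldn18 to 0.05 for Akap5, and the 95% intervals covered 0 for 8 of the 10.

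**Figure D1:**
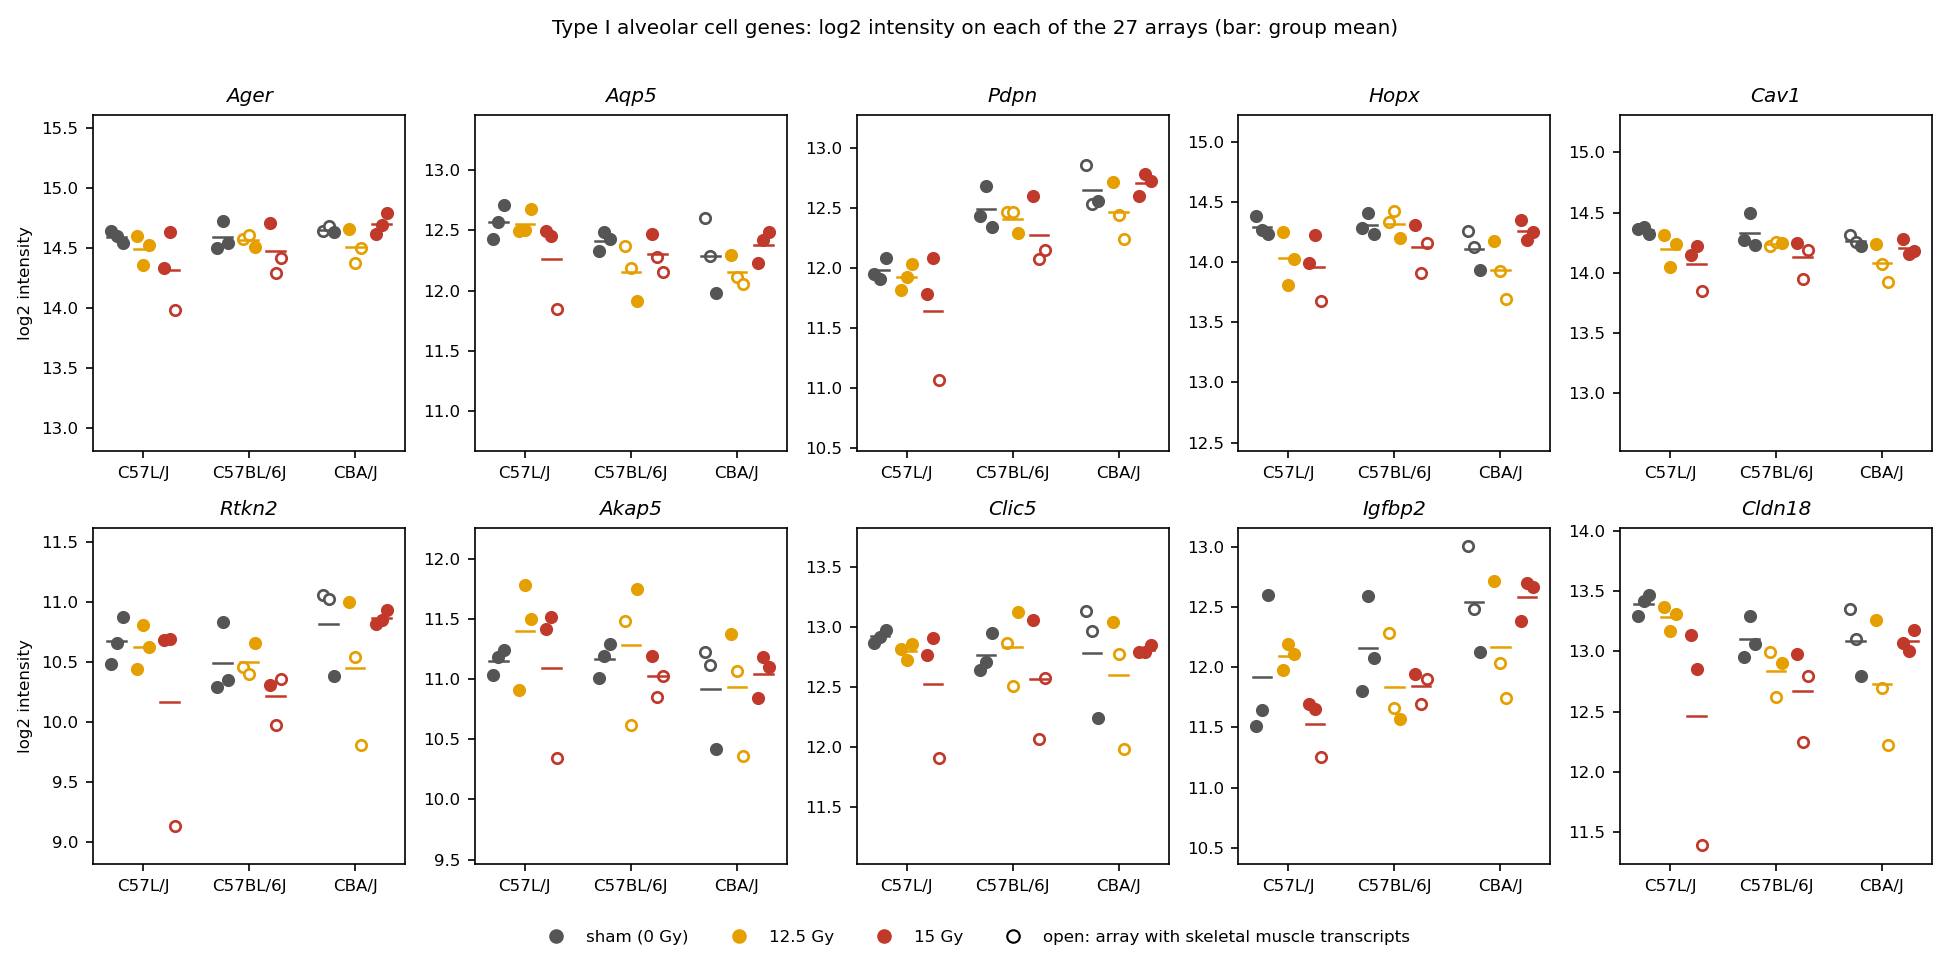
Log2 intensity of each type I cell gene (vertical axis, a window of equal height in every panel) on each array by strain and dose; points are mice, bars are the means of 3, and open points are arrays with skeletal muscle transcripts. Pdpn sits lowest in C57L/J, the strains overlap for the other 9 genes, and the lowest point in every panel is the same C57L/J array at 15 Gy.

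Ager (chr17:34597460-34600937) encodes RAGE, the receptor for advanced glycation end products, which sits on the basal membrane of type I cells. C57L/J lungs read 14.64, 14.59 and 14.54 at 0 Gy, 14.60, 14.36 and 14.52 at 12.5 Gy and 14.33, 14.63 and 13.98 at 15 Gy. C57BL/6J lungs read 14.50, 14.72 and 14.54 at 0 Gy, 14.57, 14.60 and 14.50 at 12.5 Gy and 14.70, 14.29 and 14.42 at 15 Gy. CBA/J lungs read 14.64, 14.68 and 14.63 at 0 Gy, 14.66, 14.37 and 14.50 at 12.5 Gy and 14.62, 14.69 and 14.78 at 15 Gy. All 9 groups overlapped at least 1 sham group, and the 3 CBA/J arrays at 15 Gy held the highest group mean, 14.70. The difference after irradiation was -0.10 ± 0.07 (SE), with a 95% interval of -0.24 to 0.04 and an adjusted p of 0.353 (limma).

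Pdpn (chr4:143267409-143299564) encodes podoplanin, the mucin-like glycoprotein of the apical type I cell membrane. Its difference after irradiation was -0.14 ± 0.10 (limma adjusted p = 0.404), or 0.02 ± 0.08 without the muscle arrays, and its strain pattern is described below.

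Aqp5 (chr15:99591028-99594829) encodes the water channel of the apical membrane. Its sham arrays read 11.98 to 12.71 with a median of 12.43, and its irradiated arrays 11.85 to 12.68 with a median of 12.34. The ranges covered each other nearly whole, and the difference was -0.12 ± 0.09 (limma adjusted p = 0.392), or 0.03 ± 0.07 without the muscle arrays. Cldn18 (chr9:99690796-99717267) encodes claudin-18, a tight junction protein that type II cells also make. Cldn18 read 12.80 to 13.47 on sham arrays (median 13.30) and 11.39 to 13.37 on irradiated arrays (median 12.98). Its difference, -0.35 ± 0.16, was the largest in size of the 10, with a 95% interval of -0.68 to -0.02, an unadjusted p of 0.0405 and an adjusted p of 0.161 (limma). Without the 9 arrays with muscle transcripts it was -0.02 ± 0.08 (limma adjusted p = 0.933).

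Clic5 (chr17:44134762-44280169) encodes a chloride intracellular channel protein tied to the cortical cytoskeleton. Sham C57L/J lungs read 12.87, 12.92 and 12.97, sham C57BL/6J lungs 12.64, 12.71 and 12.94, and sham CBA/J lungs 13.13, 12.96 and 12.24. Irradiated arrays read 11.91 to 13.12, with a median of 12.79, and overlapped the sham values, of which the highest, 13.13, lay above every irradiated array. The difference was -0.13 ± 0.15 (limma adjusted p = 0.610). Clic5 was the one gene whose sign and call both changed without the muscle arrays: it was then 0.30 ± 0.07 higher after irradiation (limma adjusted p = 0.0188, where 8.82% of all genes were called). By strain that estimate was 0.68 in CBA/J (limma adjusted p = 0.0437), 0.33 in C57BL/6J (0.208) and -0.10 in C57L/J (0.660), with an adjusted p of 0.247 for the interaction. The only CBA/J sham array left was replicate 3, at 12.24 the lowest of the 9 sham arrays. With the muscle score as a covariate and all arrays kept, the difference was 0.0016 ± 0.11 (limma adjusted p = 0.996).

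Cav1 (chr6:17306335-17341328) encodes caveolin-1, the coat protein of caveolae, which endothelial cells and fibroblasts hold as well. Sham C57L/J lungs read 14.36, 14.38 and 14.32, sham C57BL/6J lungs 14.27, 14.49 and 14.23, and sham CBA/J lungs 14.32, 14.25 and 14.22. The 18 irradiated arrays read 13.85 to 14.32 with a median of 14.21. Sham and irradiated values overlapped between 14.22 and 14.32. Its difference was -0.16 ± 0.06 (95% interval -0.28 to -0.04, a fold of 0.893), with an unadjusted p of 0.0101 and an adjusted p of 0.0631 (limma). Cav1 crossed the threshold in 4 of the other settings, at adjusted p-values of 0.0202 to 0.0469, and stood at -0.08 ± 0.07 (limma adjusted p = 0.522) without the muscle arrays.

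Rtkn2 (chr10:67979566-68058429) encodes rhotekin-2, an intracellular signalling protein. It read 10.29 to 11.05 on sham arrays (median 10.66) and 9.14 to 11.001 on irradiated arrays (median 10.59), and differed by -0.19 ± 0.16 (limma adjusted p = 0.495), or by 0.17 ± 0.11 without the muscle arrays (0.354). Akap5 (chr12:76324617-76334517) encodes an anchoring protein for protein kinase A. It read 10.42 to 11.29 on sham arrays (median 11.18) and 10.34 to 11.78 on irradiated arrays (median 11.14). At 0.05 ± 0.16 it was the single estimate above 0 (limma adjusted p = 0.884), and it stood at 0.46 ± 0.13 without the muscle arrays (adjusted p = 0.0537).

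Hopx (chr5:77086986-77115123) encodes a homeodomain protein without DNA binding of its own that acts as a transcriptional partner in lung epithelium. It read 13.94 to 14.41 on sham arrays (median 14.26) and 13.68 to 14.43 on irradiated arrays (median 14.18), a difference of -0.13 ± 0.08 (limma adjusted p = 0.275). Igfbp2 (chr1:72824480-72852474) encodes a secreted protein that binds insulin-like growth factors and marks mature type I cells. It read 11.51 to 13.01 on sham arrays (median 12.13) and 11.25 to 12.72 on irradiated arrays (median 11.96), a difference of -0.19 ± 0.15 (limma adjusted p = 0.433), which was 0.03 ± 0.18 without the muscle arrays.

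**Figure D2:**
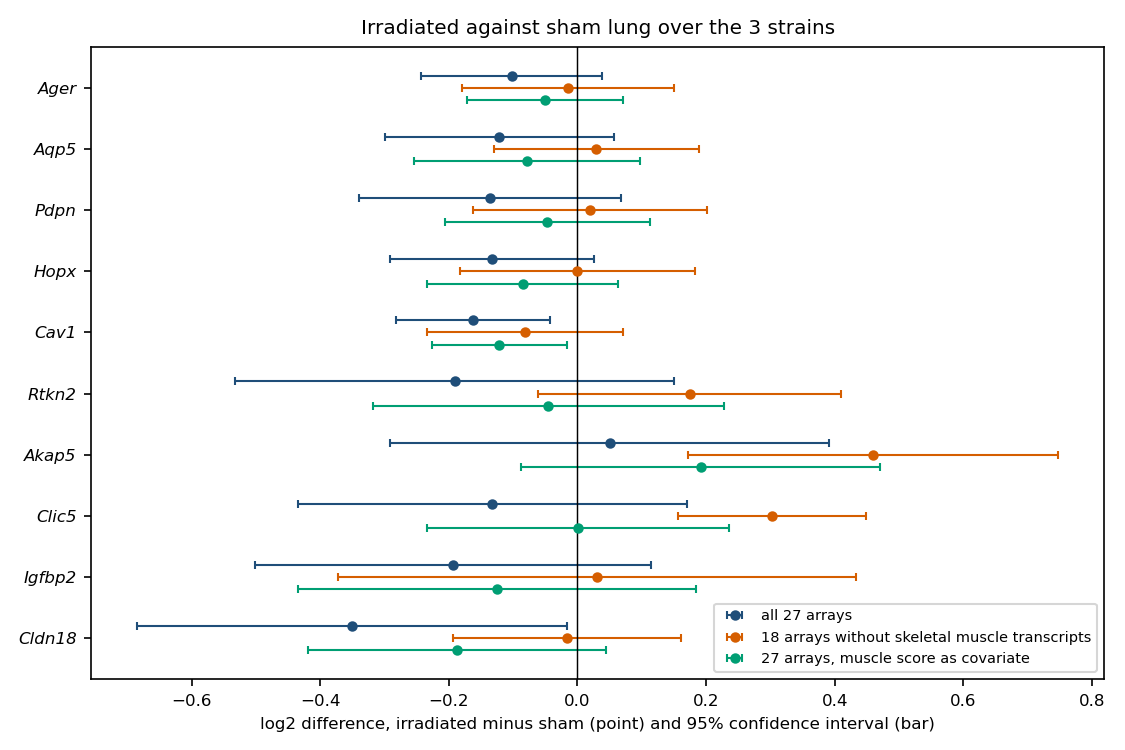
Log2 difference of irradiated minus sham lungs for each gene (horizontal axis, points) with its 95% confidence interval (bars), from all 27 arrays, from the 18 arrays without skeletal muscle transcripts, and from 27 arrays with the muscle score as a covariate. With all arrays 9 of 10 points lie below 0 and the intervals of Cav1 and Cldn18 miss it; without the muscle arrays 4 of 10 lie below 0.

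Leaving out the 9 muscle arrays moved the median of the 10 estimates from -0.13 to 0.02, with 4 of 10 below 0, and the muscle score as a covariate gave a median of -0.06 with 8 of 10 below 0. The values below 0 were thus no larger than 0.08 in size on the arrays without muscle transcripts. In that fit the CBA/J sham mean is replicate 3 alone, which read 10.38 for Rtkn2 and 12.80 for Cldn18. Replicates 1 and 2 read 11.05 and 11.02 for Rtkn2, and 13.35 and 13.10 for Cldn18. How much of the shift comes from this array was not tested.

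No difference between the doses was called. Between 15 and 12.5 Gy 0 of 10 genes were called, as were 0% of all genes (limma). At an unadjusted p under 0.05 the counts were 0 of the 10 and 809 of all genes. The largest of the 10 estimates was that of Cldn18, -0.21 ± 0.18. The interaction of strain and irradiation likewise gave 0 of 10 genes and 0% of all genes (limma), and 0 of the 10 against 979 of all genes at an unadjusted p under 0.05.

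Each strain and dose was also compared with its own sham group. Both doses of a strain share those sham arrays, so the comparisons of a strain are not independent. In C57L/J at 12.5 Gy, 0 of 10 genes were called against 1.12% of all genes, 8 estimates lay below 0 and their median was -0.08. In C57BL/6J at 12.5 Gy, 0 of 10 were called against 1.91% of all genes, with 6 below 0 and a median of -0.05. In CBA/J at 12.5 Gy, 0 of 10 were called against 2.63% of all genes, with 9 below 0 and a median of -0.18. At 15 Gy the counts were 0 of 10 against 1.94% in C57BL/6J, where all 10 estimates lay below 0 with a median of -0.20, and 0 of 10 against 2.95% in CBA/J, where 1 lay below 0 with a median of 0.05. In these 5 comparisons no gene of the 10 reached an unadjusted p under 0.05 (limma), where 9.84% to 16.1% of all genes passed. A fit on the 6 arrays of each comparison and the random variance t test gave 0 of 10 at an adjusted p under 0.05. They called only 6 to 183 and 6 to 171 of all 18194 genes in these comparisons, so 0 of 10 tells little here.

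Leaving out the muscle arrays turned the sign of 2 of these medians. Without them the median in CBA/J at 12.5 Gy was 0.39 with 0 of 10 below 0, in CBA/J at 15 Gy 0.36 with 1 below 0, in C57BL/6J at 15 Gy 0.00998 with 5 below 0, and in C57BL/6J at 12.5 Gy -0.10 with 7 below 0. These rest on 1 array each in the CBA/J sham, CBA/J 12.5 Gy, C57BL/6J 12.5 Gy and C57BL/6J 15 Gy groups, assumed to vary like the other groups.

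In the remaining comparison, C57L/J at 15 Gy, all 10 estimates lay below 0, with a median of -0.34. Again 0 of 10 genes were called against 1.15% of all genes (limma), and 3 of 10, Cldn18, Cav1 and Hopx, reached an unadjusted p under 0.05, as did 13.4% of all genes. Cldn18 reached one under 0.01, as did 4.94% of all genes. Cldn18 read 13.30, 13.42 and 13.47 in sham C57L/J lungs and 13.14, 12.85 and 11.39 at 15 Gy. The groups did not overlap, and replicate 3 lay far below the other two arrays at this dose. The difference was -0.94 ± 0.32 (a fold of 0.523) with an unadjusted p of 0.00841 and an adjusted p of 0.187 (limma).

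C57L/J at 15 Gy replicate 3 held the lowest value of all 27 arrays for every one of the 10 genes. Relative to the mean of the other two arrays of its group Cldn18 was -1.602, Rtkn2 -1.55, Akap5 -1.13, Clic5 -0.93, Pdpn -0.86, Aqp5 -0.62, Ager -0.50, Hopx -0.43, Igfbp2 -0.42 and Cav1 -0.33 on the log2 scale. The median over the 10 was -0.74, where the median over all genes was -0.003. Other lung lists were low on it too, with medians of -0.90 for 19 further type I cell genes, -0.63 for 9 type II cell markers and -1.01 for 10 blood endothelial markers, while 5 club cell markers stood at 0.07 and 6 fibroblast markers at 0.13. Some tissues outside the alveolus were high, at 7.93 for skeletal muscle, 7.53 for squamous epithelium, 6.26 for thyroid and 4.46 for fat, while mesothelial genes stood at -0.98 and cardiac muscle genes at -2.77. Without this array the C57L/J difference at 15 Gy had a median of -0.10 with 8 of 10 below 0, Cldn18 stood at -0.40 (limma unadjusted p = 0.113), and the lowest unadjusted p among the 10 genes was that one. With all 9 muscle arrays left out the same Cldn18 estimate had an unadjusted p of 0.0124 and an adjusted p of 0.234 (limma).

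**Figure D3:**
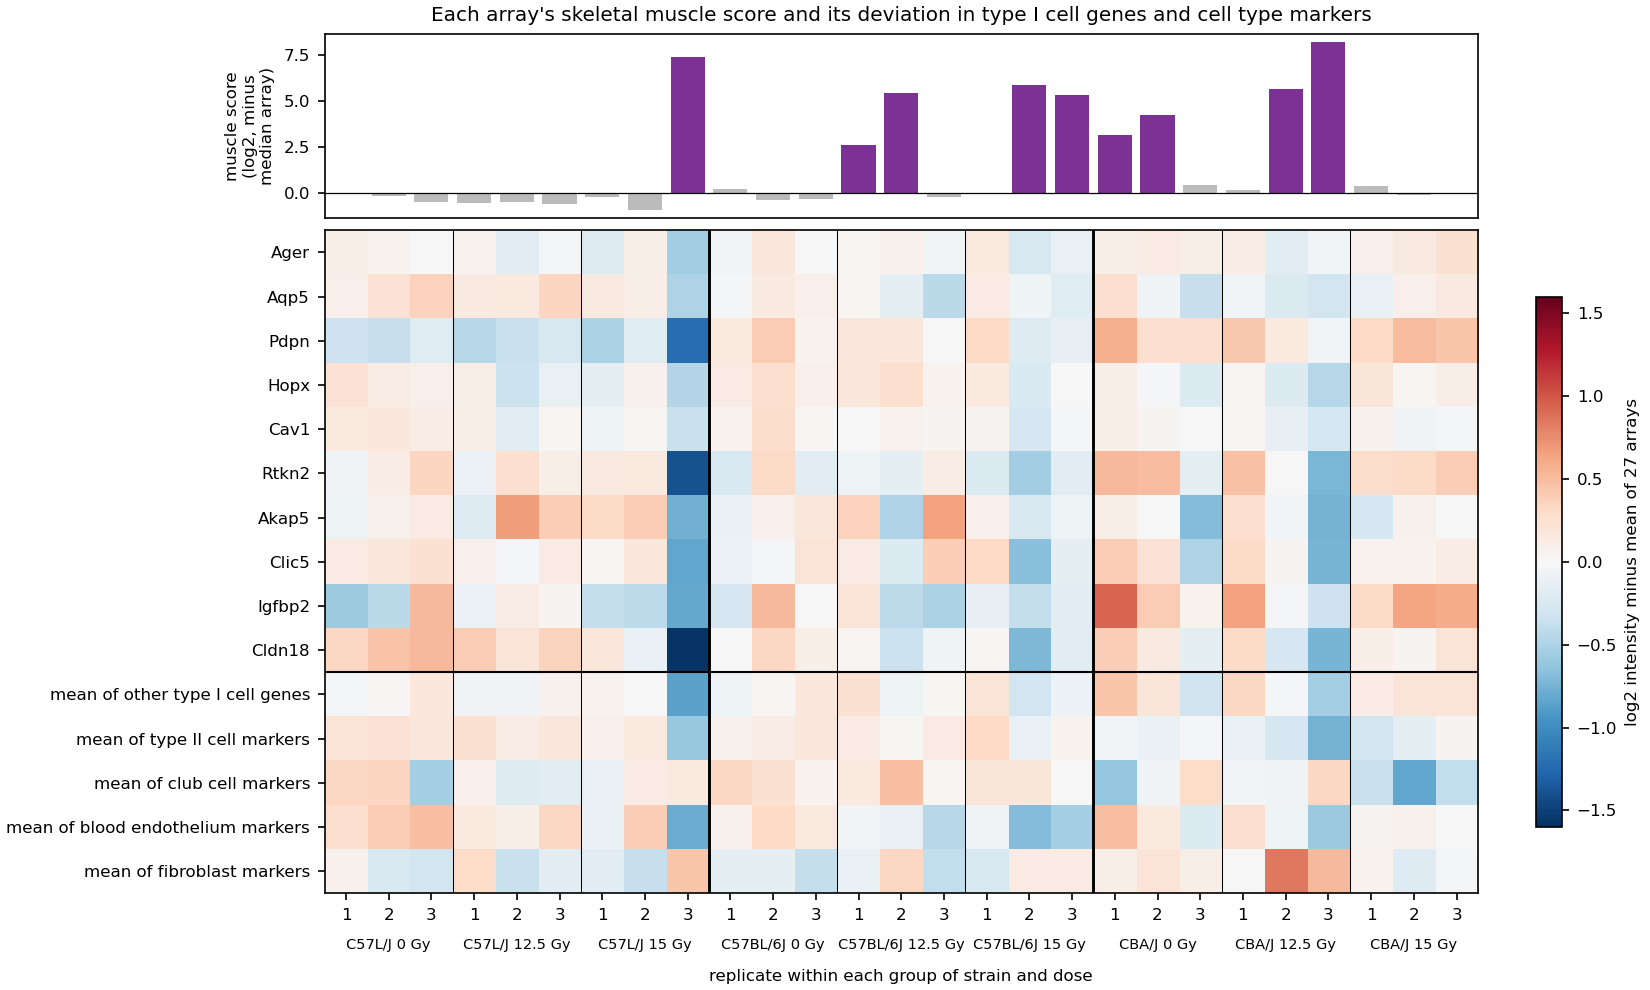
Top, the mean of 10 skeletal muscle genes on each array minus that of the median array (log2), purple where over 1.5. Bottom, each array's log2 intensity minus the mean of 27 arrays for the 10 genes and for the means of 5 marker lists (colour); C57L/J at 15 Gy replicate 3 is blue for all 10 genes, the type II and the endothelial lists, and its muscle score is 7.37.

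The 10 genes varied together from array to array. C57L/J at 15 Gy replicate 3, the lowest array for all 10, is part of the correlations that follow, and values without it are not given. Around the group means all 45 pairs of genes correlated above 0 over the 27 arrays, with Pearson correlations of 0.32 to 0.92 and a median of 0.70, as a description, since all values of an array share its RNA. The spread between mice was small for some genes and wide for others: the pooled standard deviation within groups was 0.12 for Cav1 and 0.15 for Ager, against 0.41 for Rtkn2, 0.41 for Akap5 and 0.40 for Cldn18. Among 11841 genes with a mean log2 intensity of at least 7, those closest to Ager over the 27 arrays were Adgrf5 (r = 0.85), Sparc (0.83), Spock2 (0.82), Cyp2b10 (0.82) and Dennd5a (0.82). Pdpn, at 0.76 and rank 38, was the closest of the other 9 genes, and Akap5, at 0.20, the farthest. Over all strains and doses, the muscle arrays read lower by median for most of the genes. Median Ager was 14.50 on 9 muscle arrays and 14.61 on the other 18, and median Cldn18 12.69 and 13.15, while median Pdpn was 12.44 and 12.32. Strain and dose were not balanced in this: C57L/J, where Pdpn was lowest, gave 1 muscle array. In sham CBA/J lungs both muscle arrays read above the other one for every gene but Pdpn, as for Clic5 (13.13 and 12.96 against 12.24).

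Between strains some of the genes were called. Over the 3 doses, 1 of 10 genes was called between C57L/J and C57BL/6J (5.34% of all genes), 2 of 10 between CBA/J and C57L/J (11.2%), and 0 of 10 between CBA/J and C57BL/6J (13.3%), by limma. At an unadjusted p under 0.05 the counts were 1, 2 and 1 of 10, where 19.2%, 23.1% and 25.9% of all genes passed.

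Pdpn was lowest in C57L/J. In that strain it read 11.96, 11.91 and 12.09 in sham lungs, 11.82, 11.93 and 12.03 at 12.5 Gy, and 11.78, 12.09 and 11.07 at 15 Gy. In C57BL/6J it read 12.44, 12.69 and 12.34 in sham lungs, 12.47, 12.47 and 12.29 at 12.5 Gy, and 12.60, 12.08 and 12.15 at 15 Gy. In CBA/J it read 12.86, 12.54 and 12.56 in sham lungs, 12.72, 12.44 and 12.24 at 12.5 Gy, and 12.60, 12.79 and 12.73 at 15 Gy. No C57L/J array reached a CBA/J value, and C57L/J and C57BL/6J overlapped only at 15 Gy, between 12.08 and 12.09. Pdpn was -0.54 ± 0.11 in C57L/J against C57BL/6J (95% interval -0.77 to -0.30, a fold of 0.689, limma adjusted p = 0.00599) and 0.75 ± 0.11 in CBA/J against C57L/J (0.52 to 0.99, a fold of 1.69, limma adjusted p = 7.58e-05). CBA/J and C57BL/6J differed by 0.22 ± 0.11 (-0.02 to 0.45, limma adjusted p = 0.240).

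Both Pdpn calls held in every other setting and with any 1 array left out. Without the 9 muscle arrays the differences were -0.51 ± 0.09 (limma adjusted p = 0.0149) and 0.71 ± 0.09 (0.000765). In sham lungs alone, with 3 arrays a strain, they were -0.50 ± 0.20 and 0.66 ± 0.20, with limma adjusted p-values of 0.476 and 0.0710. Pdpn has 1 probe set on this array, so no second one could be set beside it, and whether sequence differences between strains touch its probes was not tested.

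Igfbp2 was highest in CBA/J. Its 9 C57L/J arrays read 11.25 to 12.60 (median 11.69), its C57BL/6J arrays 11.57 to 12.59 (11.91) and its CBA/J arrays 11.74 to 13.01 (12.48). Sham C57L/J lungs read 11.51, 11.64 and 12.60, sham C57BL/6J lungs 11.80, 12.59 and 12.08, and sham CBA/J lungs 13.01, 12.48 and 12.13. The 3 strains overlapped, and the 3 sham C57L/J mice spread over more than the difference between strain medians. Igfbp2 was 0.58 ± 0.17 higher in CBA/J than in C57L/J (95% interval 0.23 to 0.94, a fold of 1.498, limma adjusted p = 0.0300). The call was lost without the muscle arrays (0.58 ± 0.21, limma adjusted p = 0.129) and when any 1 of 8 arrays was left out, with adjusted p-values up to 0.0707. Against C57BL/6J the difference was 0.48 ± 0.17 (limma unadjusted p = 0.0102, adjusted p = 0.0671). It too has 1 probe set.

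**Figure D4:**
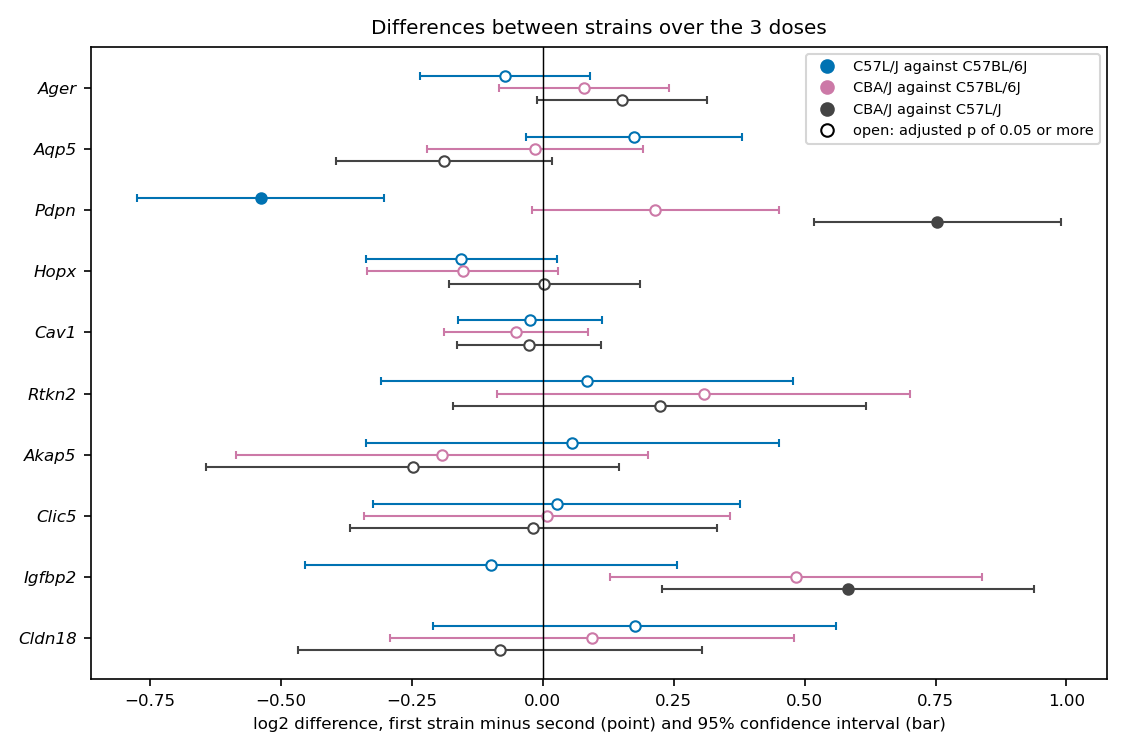
Log2 difference between each pair of strains over the 3 doses (horizontal axis, points) with its 95% confidence interval (bars); filled points have an adjusted p under 0.05. Pdpn is filled for C57L/J against C57BL/6J and for CBA/J against C57L/J, Igfbp2 for the latter, and the other 8 genes are open in all 3 comparisons.

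The remaining 8 genes gave strain differences of -0.25 to 0.31, none called with all arrays. Rtkn2 was 0.31 ± 0.19 in CBA/J against C57BL/6J, Akap5 -0.25 ± 0.19 in CBA/J against C57L/J, and Ager 0.15 ± 0.08 and Aqp5 -0.19 ± 0.10 in that same comparison (limma adjusted p-values of 0.256 to 0.482). Without the muscle arrays Aqp5 was called there, at a limma adjusted p of 0.0414.

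Ager, Hopx, Cldn18, Akap5 and Clic5 have more than 1 probe set. For Ager and Hopx the other probe set gave the sign of the first after irradiation, -0.14 and -0.24, as did 2 of the 3 others for Clic5. The second Cldn18 probe set gave -0.15 ± 0.24 after irradiation, and 0.59 ± 0.28 in C57L/J against C57BL/6J where the first gave 0.18. One of the 3 Akap5 probe sets disagreed with the other two: it was -1.08 ± 0.25 in CBA/J against C57L/J (limma adjusted p = 0.00619 over all probe sets), where they gave -0.25 and 0.01. Its strain means were 8.78 in C57L/J, 7.93 in C57BL/6J and 7.70 in CBA/J. Which part of the transcript it reads was not analysed here.

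Related genes give the surroundings of the 10, and list counts after irradiation below stand beside 14.3% of all genes called in that comparison. Of 19 further type I cell genes, 0 rose and 2 fell after irradiation, the simple epithelial keratin Krt7 by 0.34 ± 0.09 and Timp3, an inhibitor of metalloproteinases that other cells also make, by 0.32 ± 0.10 (limma adjusted p-values of 0.0154 and 0.0434). The Timp3 call held in 11 of 27 fits with 1 array left out and in 5 of 10 other settings, the Krt7 call in 27 and 8. The median of the list was -0.14. Neither call held without the muscle arrays (-0.22 and -0.12). There Lama3 stood at 0.61, Cdkn2b at 0.57, Scnn1g at 0.35 and Pxdc1 at 0.34. Spock2 (-0.13) and Sec14l3 (-0.11) also lay below 0, and the rest of the list above it. These values rest on 1 CBA/J sham array, whose mean over this list, 11.36, was the lowest of the 18 arrays. Of 8 regulators of alveolar epithelial identity, among them Nkx2-1 at -0.04, Yap1 at -0.18 and Wwtr1 at 0.04, 0 were called in either direction. Without the muscle arrays, and so with 1 CBA/J sham array, Wwtr1 stood at 0.33 and Yap1 at -0.19. Of 9 type II cell markers 0 were called, with a median of -0.14.

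A further list holds genes that rise in the transitional state between type II and type I cell. Of 8 measured, 2 rose and 0 fell, where 14.3% of all genes were called. These were the tight junction gene Cldn4, by 0.78 ± 0.14, and the galectin Lgals3, by 0.23 ± 0.06 (limma adjusted p-values of 0.000795 and 0.00976). Macrophages also hold Lgals3. Both held without the muscle arrays, at 0.41 and 0.25 (limma adjusted p-values of 0.0403 and 0.04996). The keratins Krt8 (0.15), Krt18 (0.08) and Krt19 (0.28) of the same list were not called. Estimates in this list ran from -0.28 to 0.78 with a median of 0.19, so not every gene of it lay above 0.

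Some molecular partners of the 10 passed the test. Of 4 S100 ligands of RAGE 3 rose: S100a9 by 1.57, S100a8 by 1.23, both carried chiefly by neutrophils, and S100a6 by 0.33 (limma adjusted p-values of 0.00144, 0.00365 and 5.72e-05). Of 7 caveola genes Cavin1, the coat protein that works beside caveolin-1, fell by 0.30 ± 0.06 (limma adjusted p = 0.00102) and no other was called. Without the muscle arrays Cavin1 was -0.21 with a limma adjusted p of 0.0768. Of 6 other aquaporins Aqp1, the water channel of capillary endothelium and red cells, fell by 0.63 ± 0.09 (limma adjusted p = 3.6e-05), also without the muscle arrays (-0.56, 0.00769). Of 9 other genes of the insulin-like growth factor system, Igf1 rose by 0.53 and its receptor Igf1r fell by 0.30 (limma adjusted p-values of 0.0184 and 0.0118), and neither was called without the muscle arrays. Of 7 tight junction partners of claudin-18, 0 were called with all arrays. Without the muscle arrays, and so with 1 CBA/J sham array, occludin, Ocln, stood at 0.44 and F11r at -0.31.

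The endothelium is the layer on which the type I cell lies. Of 10 blood endothelial markers 0 rose and 6 fell, with a median of -0.42 against -0.13 for the 10 type I cell genes: the largest were Emcn by 0.59, Vwf by 0.53, Ramp2 by 0.52 and Kdr by 0.46. On the 18 arrays without muscle transcripts, 1 of them CBA/J sham, Emcn alone of the 6 kept its call (-0.41), and Cldn5 stood at 0.36. The difference between the endothelial and the type I cell list was not tested. Of 4 lymphatic markers Lyve1 rose by 0.57 (0.97 without the muscle arrays), and 0 were called of 5 club cell, 5 mesothelial, 6 fibroblast, 10 skeletal muscle, 6 cardiac muscle, 7 squamous, 3 fat and 2 thyroid genes (limma). The skeletal muscle genes had a median of 1.38.

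**Figure D5:**
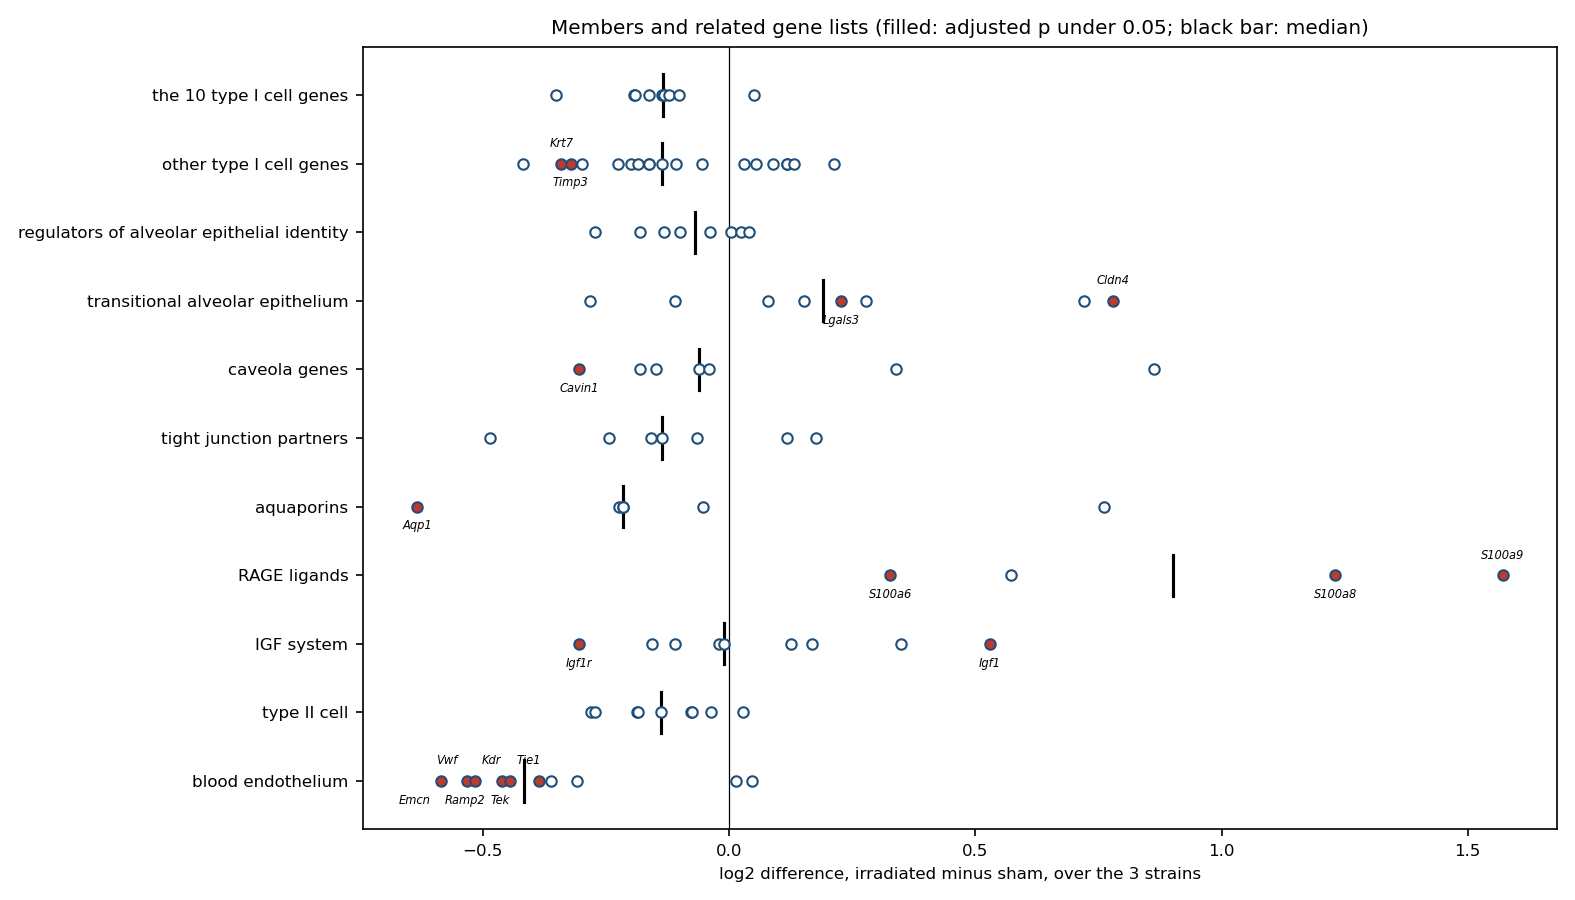
Log2 difference of irradiated minus sham lungs over the 3 strains (horizontal axis) for the 10 type I cell genes and for related lists, 1 point per gene, filled where the limma adjusted p is under 0.05 and with the median as a black bar. None of the 10 is filled; Cldn4, Lgals3, 3 S100 genes and Igf1 are filled above 0, and Krt7, Timp3, Cavin1, Aqp1, Igf1r and 6 endothelial genes below.

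Between strains, 1 of the 19 further type I cell genes was called for C57L/J against C57BL/6J (5.34% of all genes), 3 for CBA/J against C57BL/6J (13.3%) and 3 for CBA/J against C57L/J (11.2%). Timp3, like Pdpn, was lowest in C57L/J, at -0.51 ± 0.12 against C57BL/6J and 0.80 ± 0.12 in CBA/J against C57L/J (limma adjusted p-values of 0.0150 and 7.6e-05, the first lost with median-centring). Pxdc1 was lowest in CBA/J, -0.82 against C57BL/6J and -0.52 against C57L/J, and Itgb6, a subunit of the integrin that activates TGF-beta, was 0.75 higher in CBA/J than in C57BL/6J (limma adjusted p-values of 0.000157, 0.0114 and 0.0096). Without the muscle arrays the Itgb6 call was lost (0.61, limma adjusted p = 0.0584).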

How the data were processed

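The 27 lung RNA samples, 3 mice in each of 9 groups taken from the labels, were run on 1 array each. The deposited values are linear intensity per probe set, for which the submitters' notes name Affymetrix Expression Console 1.1. The method that summarised the probes was not given in the sources used here. On every array the 2% trimmed mean was 500 (median intensity 127.6 to 167), so the authors' values were scaled already and were used without another normalization. Values were floored at 1 and converted to log2. Of 45101 probe sets, 34958 carried 1 gene symbol (34897 matched to a current one), 932 with several and 9211 with none were left out, and the brightest probe set on average represented its gene. The number of arrays limits the precision, and p-values set each difference against the spread between arrays of a group, 1 mouse each. Arrays with muscle transcripts are part of that spread.

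A single model with 9 group means was fitted to all arrays with limma 3.58.1 (lmFit, eBayes; R 4.3.3; 18 residual degrees of freedom), and the script was tested on simulated data. The contrasts were irradiated against sham, 15 against 12.5 Gy, each strain and dose against its sham, pairs of strains over the doses, and the interaction. The text names all 10 genes and, per list, up to 4 genes with an adjusted p under 0.05 in a contrast; genes named without a call were chosen after their values were seen. The 10 genes and the lists were chosen with earlier results of these data known. Alternatives were quantile normalization, median-centring, a floor of 32, averaged probe sets, a low-value filter, an intensity trend and robust prior, weights for arrays, the replicate number as a block, fits on 6 arrays, the random variance t test, and leaving out each array or the muscle arrays, or using the muscle score as a covariate. That score is the mean of 10 skeletal muscle genes, and an array over 1.5 above the median array was taken to carry muscle transcripts. Promoters came from RefSeq (GRCm38.p6), and figures were drawn with matplotlib 3.10.9.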

Additional observations from a re-analysis of the deposited data

How the results depend on the processing

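Of the counts of type I cell genes called, 132 of 144 values under other settings and 309 of 324 with 1 array left out kept their side. Irradiated against sham went from 0 to 1 gene with a floor of 32, a filter on low values, an intensity trend with a robust prior and array weights (Cav1 each time, -0.16 or -0.15), and to 1 without the muscle arrays (Clic5). With 1 array left out it was 0 to 1, the 1 being Cav1 without C57L/J 15 Gy replicate 2 or CBA/J 12.5 Gy replicate 1. C57L/J at 15 Gy had 1 gene at an unadjusted p under 0.01 (Cldn18). CBA/J against C57BL/6J went from 0 to 1 (Igfbp2) with median-centring, the filter, the trend or the muscle covariate, to 2 with array weights (Igfbp2 and Rtkn2), and was 0 to 1 with 1 array left out. CBA/J against C57L/J went from 2 to 1 with median-centring and was 1 to 2 with 1 array left out; without the muscle arrays it stayed at 2, with Aqp5 in place of Igfbp2, and with the muscle covariate it gained Ager (0.23). Signs turned without the muscle arrays for Aqp5 (0.0295), Pdpn (0.0194), Rtkn2 (0.17), Clic5 (0.30) and Igfbp2 (0.03035), with the muscle covariate for Clic5 (0.0016), and for Akap5 with the mean of probe sets (-0.0154) or without CBA/J 0 Gy replicate 3 (-0.0337). The cause was not tested.

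Over all genes, calls for irradiated against sham numbered 2605 (1060 higher), 2207 (1251 higher) with median-centring, 1604 without the muscle arrays and 3908 with array weights. Median-centring moved the median difference of all genes in CBA/J at 12.5 Gy from -0.02 to 0.11. Calls between strains ranged from 629 to 1814 (reported 972), 1262 to 3911 (2412) and 1454 to 3764 (2035), and those for 1 strain and dose from 0 (C57L/J at 15 Gy, 6 arrays) to 2043 (CBA/J at 12.5 Gy, array weights), where 209 and 479 were reported. Between C57L/J and C57BL/6J 461 of the 972 were higher, against 1241 of 1549 with median-centring, and between CBA/J and C57BL/6J 1035 of 2412, against 2061 of 2959.

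Same-numbered mice are not stated to share a litter or day. Of 9 pairs of groups, only CBA/J 0 and 12.5 Gy had all 3 correlations of same-numbered arrays over 0.1 (0.264, 0.461 and 0.275), and the others ran from -0.296 to 0.434. The replicate number as a block left every count of the 10 genes as it was, with 0 for irradiated against sham, 1 for C57L/J against C57BL/6J and 2 for CBA/J against C57L/J (Igfbp2 at a limma adjusted p of 0.0405).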

Other observations

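The type II cell is the neighbour and source of the type I cell. Of its 9 markers, 1 was called higher and 3 lower in CBA/J against C57BL/6J (13.3% of all genes called). In CBA/J against C57L/J, 0 were called higher and 3 lower (11.2%). The surfactant protein genes Sftpb and Sftpc were not called between strains, unlike Sftpa1 and Sftpd. Sftpa1 was -0.71 and Sftpd -0.66 in CBA/J against C57BL/6J, and -0.65 and -0.64 in CBA/J against C57L/J, and all 4 differences were called by limma in each setting tried and with any 1 array left out. Abca3, the lipid transporter of lamellar bodies, was 0.40 in CBA/J against C57BL/6J and lost its call with the mean of probe sets and with any 1 of 6 arrays left out. Among other lists, the binding protein Igfbp6 was -0.96 in CBA/J against C57BL/6J and -0.98 against C57L/J, where Igfbp2 was 0.48 and 0.58. The mesothelial gene Upk1b was -1.27 and -1.35 in the same comparisons, and endomucin, Emcn, was 0.74 in C57L/J against C57BL/6J.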
